A study of Strongylocentrotus purpuratus with 2 samples.

Results

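NW_022145611.1 is the assembled sequence of the purple sea urchin, Strongylocentrotus purpuratus, that carried the most peaks of open chromatin per Mb among the long sequences. It was chosen by that measured density, and its members are all peaks placed on it in both deposited lists. They numbered 2307 of 29456 peaks in replicate 1 and 2476 of 32554 peaks in replicate 2, which made 4783 of 62010 peaks, or 7.71%, over both lists. The sequence was taken to end at its last covered base, 45165636, and so spanned 45.2 Mb, or 5.47% of the summed span of the 21 sequences whose last peak ended beyond 20 Mb. The other 20 of these are the sequences it is compared with.

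The samples were 2 replicates of wild-type whole embryos at 48 hours post fertilization, grown at 15°C in artificial sea water, and no other group was analysed here. The labels do not say whether the replicates came from separate cultures, so the spread between them may be technical. ATAC-seq was performed on each, and 1 peak list was deposited per replicate. No comparison between conditions exists, and peaks of a library are not replicates, so values are given as descriptions with no p-value.

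In ATAC-seq the transposase Tn5 inserts sequencing adapters where DNA is not packed into nucleosomes, so that reads pile up at accessible regions. In animal embryos such regions are mostly promoters and enhancers, where transcription factors hold the DNA open, and the set of open enhancers changes as cells take on their fates. In this species the gene regulatory networks of the early embryo have been mapped in detail, and at this stage the embryo is gastrulating or has just done so. In a whole embryo a peak is a sum over all cells, so openness in many cells and strong openness in few cells cannot be told apart. No genes were placed on the sequence here, and positions are given 1-based as the lists name them. The genome build is not given in the sources used here.

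Peak density was 51.1 peaks per Mb in replicate 1 and 54.8 in replicate 2, a mean of 52.9 ± 2.65 (SD, n = 2). Among the other long sequences the density spanned 15.3 to 47.6 per Mb in replicate 1, with a median of 32.9, and 19.2 to 50.9 in replicate 2, with a median of 35.0. The sequence thus had 1.55 times the median density of the others in replicate 1 and 1.57 times in replicate 2. The next sequences were NW_022145613.1, at 49.3 ± 2.37 per Mb, and NW_022145614.1, at 49.2 ± 2.23 per Mb (SD, n = 2 for each). Their distance from the highest value was of the size of the spread between replicates. NW_022145611.1 was nevertheless the densest in each list, while the next sequences changed places between the lists. These densities are the values that chose the sequence and are given as a description. Peaks covered 1.30% of the sequence in replicate 1 and 1.45% in replicate 2, against 0.322 to 1.15% and 0.416 to 1.27% on the others.

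Background differed between the lists and between the sequences. Neither list holds read totals, so the reads piled up at each summit and the local background were solved from the deposited fold and p. The formulas for both were assumed, since the settings are not given, and a whole number was found for every peak. The library-wide background was 0.671 (replicate 1) and 0.813 (replicate 2) reads per base, a ratio of 1.21. To limit the effect of neighbours, background was compared at summits more than 20 kb from any other. On NW_022145611.1 its mean there was 1.27 in replicate 1, below a single other sequence, and 1.499 in replicate 2, the highest of all 21. The others ran from 0.951 to 1.27 and from 1.07 to 1.43. The sequences next in density, NW_022145612.1 to NW_022145615.1, were close to it in replicate 1, at 1.21 to 1.27. In replicate 2 they had 1.29 to 1.43. A raised background was thus not particular to this sequence. This background includes reads of the peak's own surroundings, and its part in the density was not tested.

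The high density extended over most of the sequence. In 45 full bins of 1 Mb, the lowest count of replicate 1 was 10 peaks, the median 50 and the highest 87, with quartiles of 43 and 67. In replicate 2 the lowest was 20, the median 54 and the highest 99, with quartiles of 42 and 67. No bin was empty in either list, which also held for most of the other sequences in replicate 1 and for all of them in replicate 2. Of the 45 bins, 39 in replicate 1 and 37 in replicate 2 held more peaks than the median bin of the other sequences, which held 31 and 35 peaks over 774 bins. Of the bins on the sequence, 31 and 29 lay above the upper quartile of those bins, which was 45 peaks in replicate 1 and 49 in replicate 2.

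**Figure D1:**
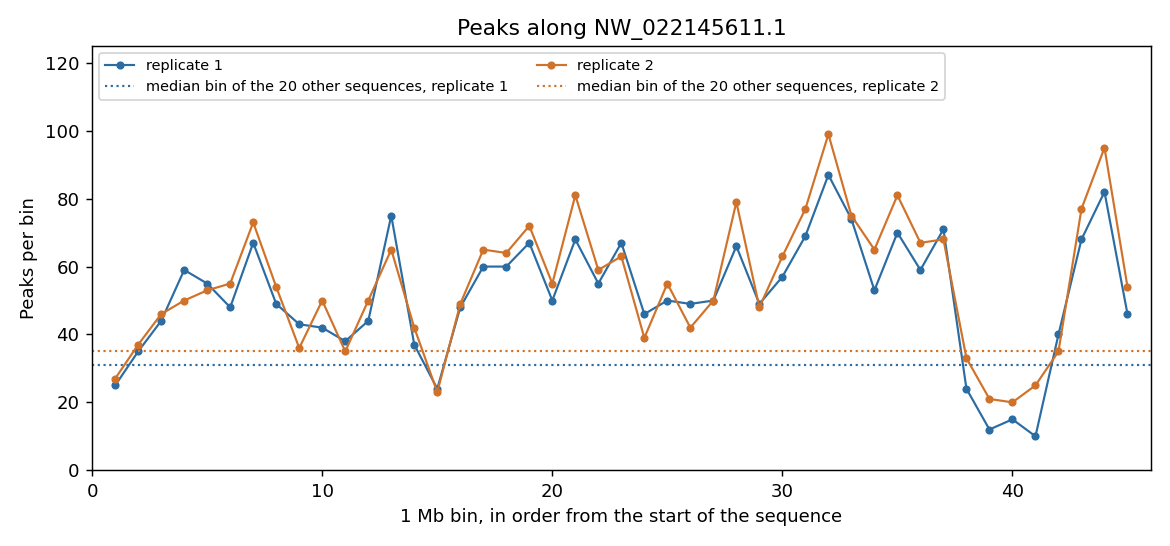
Peaks per 1 Mb bin along NW_022145611.1, from the start of the sequence, with 1 line per replicate. Dotted lines mark the median bin of the 20 other long sequences, 31 peaks in replicate 1 and 35 in replicate 2. Counts stay above these lines in most bins and dip to 10 to 33 peaks in bins 38 to 41.

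The densest bin was bin 32, from 31000001 to 32000000, with 87 peaks in replicate 1 and 99 in replicate 2. It was followed by bin 44, from 43000001 to 44000000, with 82 and 95 peaks, and by bin 35, from 34000001 to 35000000, with 70 and 81 peaks. The 5 neighbouring bins with the most peaks ran from 30000001 to 35000000 and held 353 peaks in replicate 1 and 397 in replicate 2, or 70.6 and 79.4 per Mb. On the other sequences, 4 of the 774 bins held more than 87 peaks in replicate 1, and 0 held more than 99 in replicate 2.

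Fewest peaks were found in bins 39, 40 and 41. Bin 39, from 38000001 to 39000000, held 12 peaks in replicate 1 and 21 in replicate 2. Bin 40 held 15 and 20, and bin 41 held 10 and 25. Together with bin 38, which held 24 and 33, they formed a sparse stretch from 37000001 to 41000000 with 61 peaks in replicate 1 and 99 in replicate 2, or 15.25 and 24.75 per Mb. This stretch of 4 bins was picked after the profile had been seen. Bin 37, just before it, held 71 and 68 peaks. Bin 42, just after it, held 40 and 35, below the lower quartile of the sequence in both lists, and bin 43 held 68 and 77. Of the 45 bins, 6 were at or below the median bin of the other sequences in both replicates, namely these 4, bin 1 and bin 15.

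Stretches this sparse also occurred elsewhere. The median of 714 windows of 4 neighbouring bins on the other sequences was 129 peaks in replicate 1 and 143 in replicate 2. Neighbouring windows overlapped, so a single sparse stretch could be counted more than once. Of these windows, 64 held 61 peaks or fewer in replicate 1, and they lay on 11 of the 20 sequences. In replicate 2, 144 windows on 16 sequences held 99 peaks or fewer.

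Peaks of the sparse stretch differed from those of the dense stretch in median width and in summit reads as well as in number. Median widths were 198 bp (replicate 1) and 180 bp (replicate 2), whereas bins 31 to 35 had 258 bp and 251 bp. The median summit held 12 and 11 reads in the sparse stretch against 17 reads in both lists in the dense one. Of the sparse stretch's peaks, 4 in replicate 1 and 7 in replicate 2 were among the strongest decile of the list, the 10% of all its peaks with the highest −log10 p. Counts this small leave the shares uncertain, and no interval is given for them. The shares were 6.56% and 7.07% of the sparse stretch's peaks, against 13.6% and 12.6% in the dense stretch. The authors' fold over background ran the other way, with medians of 6.58 and 6.07 in the sparse stretch and 5.76 and 5.38 in the dense one. Local background was here taken at all summits, so close neighbours may add to it. Its mean was 0.986 and 1.21 reads per base in the sparse stretch and 2.27 and 2.67 in the dense one. Summits of fewer reads thus had the higher fold, which is taken against that background. Of the sparse stretch's peaks, 75.4% in replicate 1 (95% Wilson interval 63.3 to 84.5%) and 46.5% in replicate 2 (37.0 to 56.2%) had a partner in the other list. In the dense stretch the shares were 78.8% (74.2 to 82.7%) and 68.3% (63.5 to 72.6%). Over all peaks of each list they were 69.0% and 60.8%. Replicate 2 listed 99 peaks in the sparse stretch against 61 in replicate 1.

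Across all 45 bins the profiles of both replicates were alike. Pearson's r between the bin counts was 0.943 and Spearman's rho 0.938, given as a description, since bins share libraries and depth. On the other sequences r ran from 0.889 to 0.975. Replicate 2 held more peaks in 32 bins, replicate 1 in 12 bins, and 1 bin was equal. The difference ranged from 10 fewer to 15 more peaks in replicate 2, with a median of 5 more. The bins varied with a coefficient of variation of 34.9% in both replicates, with a single sequence lower in each. The range of the others was 34.7 to 77.5% in replicate 1, and 30.9 to 65.3% in replicate 2. Peak number went with local background over the 45 bins (Spearman's rho 0.618 in replicate 1 and 0.525 in replicate 2) and with median width (rho 0.470 for the means of both lists). It went less with the share of peaks in the strongest decile (rho 0.190). Bin backgrounds were taken at all summits, not only isolated ones. Neighbouring peaks may thus add to them, and how much was not tested.

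Replicate agreement was higher than on any other long sequence. Of its peaks, 1702 of 2307 in replicate 1 overlapped a peak of replicate 2 by at least 1 bp, a share of 73.8% (95% Wilson interval 71.9 to 75.5%), against 69.0% of all peaks of that list. In replicate 2, 1656 of 2476 peaks had a partner, a share of 66.9% (65.0 to 68.7%), against 60.8% of all its peaks. Shares on the other 20 sequences spanned 62.4 to 71.6% in replicate 1, and 51.6 to 66.0% in replicate 2. These intervals cover counting error only, and both shares are sides of a single comparison. Where only peaks of a −log10 p of at least 10 were kept in both lists, 2 other sequences had a higher share in replicate 1 and 3 in replicate 2.

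When overlapping intervals were joined across the lists, the sequence carried 2990 regions. Both replicates contributed to 1565 of them, while 605 came from replicate 1 alone and 820 from replicate 2 alone. The regions held by both made up 52.3%, against 39.5 to 50.3% on the other sequences. They lay at 34.7 per Mb, against 9.44 to 31.2, which follows in part from the density that chose the sequence. In bases, 440 kb of the 801 kb covered by either list were covered by both, or 55.0%, against 42.1 to 53.4% elsewhere. In 1366 of the 1565 shared regions a single peak of each list met. Shared regions numbered between 6 and 62 per bin, with a median of 34. The sparse stretch held 42 in all, or 10.5 per Mb, and bins 31 to 35 held 254, or 50.8 per Mb.

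**Figure D2:**
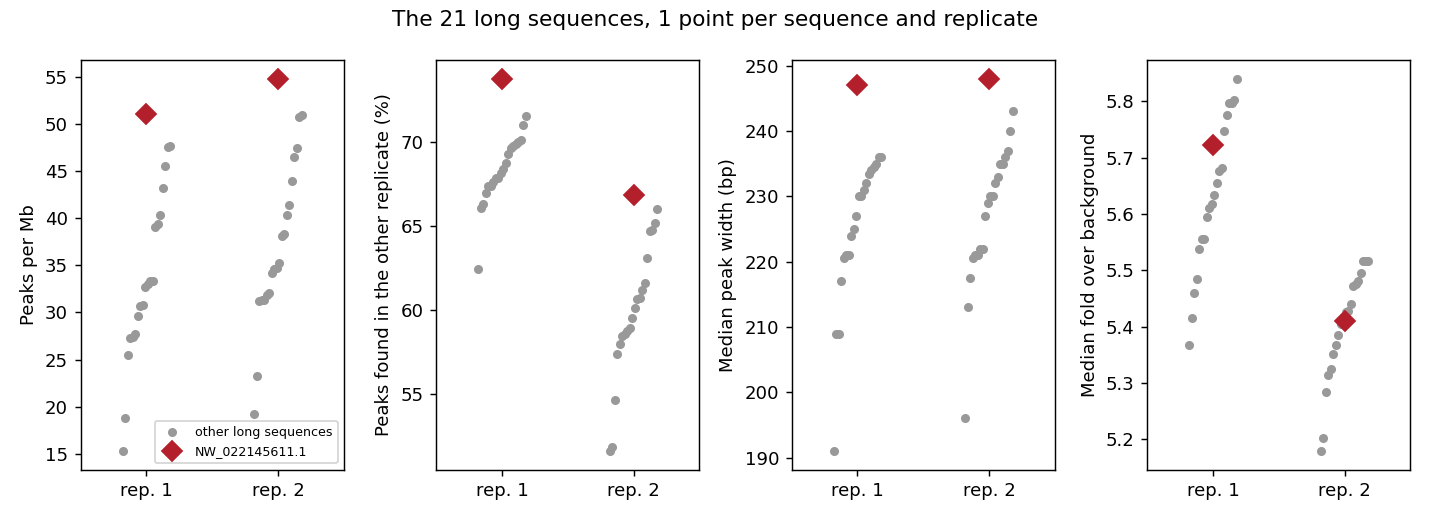
Values of the 21 long sequences in each replicate: peaks per Mb, the share of peaks found in the other replicate, the median peak width in bp and the median fold over background. Each grey point is a sequence and the red diamond is NW_022145611.1, which lies above the other 20 in the first 3 panels and within their range in the fourth, at 5.72 in replicate 1 and 5.41 in replicate 2. Axes do not start at 0.

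Peaks on the sequence were stronger by −log10 p and by reads than on the other sequences, but not by fold. The median −log10 p was 10.04 in replicate 1 and 10.01 in replicate 2, above the other sequences, which reached 9.72 and 9.60. The median summit held 16 reads in replicate 1 and 17 in replicate 2, against medians of 11 to 14 and 12 to 16 reads elsewhere. The median fold was 5.72 and 5.41, with 6 and 10 of the 20 other sequences higher. Its folds spanned 2.77 to 23.5 in replicate 1, and 2.42 to 23.2 in replicate 2. The higher local background given above stood beside these values, and its part in them was not tested.

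Of the peaks, 299 in replicate 1 and 308 in replicate 2 belonged to the strongest decile of their list, a share of 12.96% (95% Wilson interval 11.7 to 14.4%) and 12.4% (11.2 to 13.8%). That decile is 10% of each whole list by construction, and its share was 7.12 to 11.6% on the other sequences in replicate 1 and 6.16 to 12.3% in replicate 2. The weakest decile held 9.02% and 10.2% of the sequence's peaks. Strong peaks were therefore in greater excess per Mb than weak ones. Relative to the median of the other sequences, peaks of the strongest decile were 1.90 times as dense in replicate 1 and 1.78 times in replicate 2. Across deciles this ratio stayed between 1.35 and 1.90 in replicate 1 and between 1.24 and 1.87 in replicate 2. In the 4 strongest deciles it was at least 1.61 in both lists, and in the 6 weakest it was at most 1.54.

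Part of the higher agreement went with this greater strength. Overlap fell from each decile to the next weaker one, on this sequence and on the others together. In the strongest decile, 299 of 299 peaks of replicate 1 and 308 of 308 of replicate 2 had a partner, against 99.6% and 99.7% on the other sequences together. In the weakest decile the share was 28.4% in replicate 1 (95% Wilson interval 22.7 to 34.8%) and 20.2% in replicate 2 (15.7 to 25.6%), against 27.3% and 19.8% on the other sequences together. Decile by decile, the share exceeded that of the other sequences together in 8 of 10 deciles for replicate 1, and in 10 of 10 for replicate 2. Its Wilson interval lay wholly above their value in 1 decile of replicate 1, the sixth, and in 3 deciles of replicate 2, the second, the fourth and the fifth. It held their value in all the others. Weighting its deciles as on the other sequences brought the gap in agreement from 5.11 to 2.68 percentage points in replicate 1 and from 6.31 to 2.78 in replicate 2. The weakest peaks rested on a median summit of 8 reads, on this sequence as on the others. At that depth a missing partner does not show closed chromatin.

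**Figure D3:**
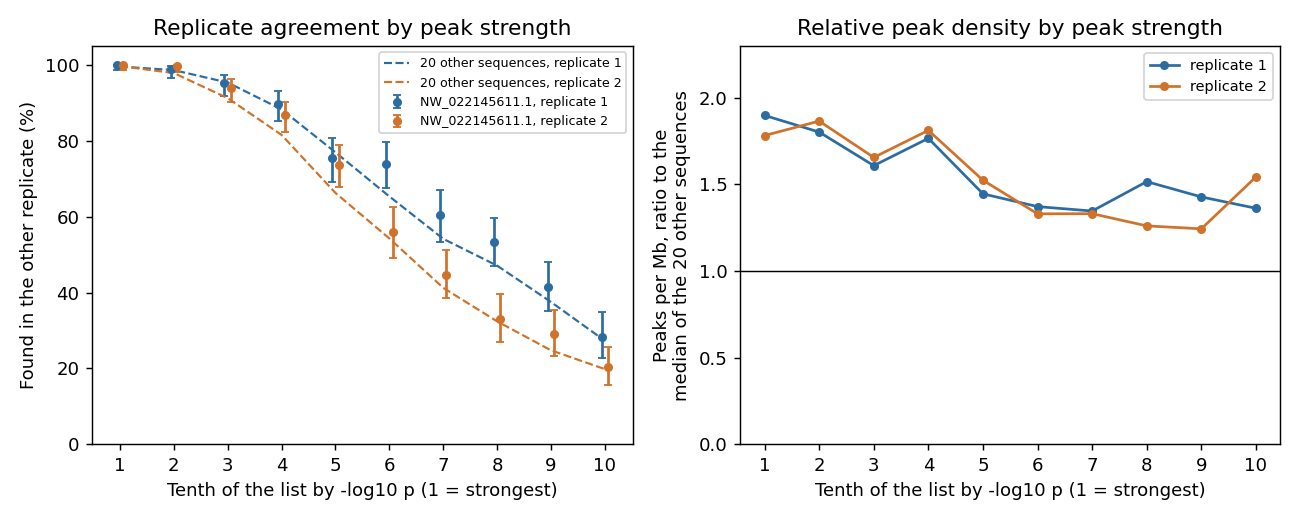
Left, the share of peaks found in the other replicate by decile of −log10 p, as points with 95% Wilson intervals for NW_022145611.1 and dashed lines for the 20 other long sequences together. Right, peaks per Mb on the sequence relative to the median of the 20 others, by decile. The ratio lies between 1.24 and 1.90 in both replicates and is highest in the strongest deciles.

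Summits of shared peaks were placed no closer than elsewhere. From a shared peak of replicate 1 to the nearest summit of an overlapping peak of replicate 2, the median distance was 41 bp, with quartiles of 14 and 91 bp, over 1702 peaks. On the other sequences the median was 39 bp, with quartiles of 12 and 89 bp. Summits lay within 100 bp in 77.7% of cases on the sequence and 78.4% on the others, and 30 summits fell on the same base.

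Peaks were wider than on any other long sequence, by a small margin. The median width was 247 bp in replicate 1, with quartiles of 123 and 325.5 bp, and 248 bp in replicate 2, with quartiles of 124 and 341 bp. Medians elsewhere spanned 191 to 236 bp, and 196 to 243 bp. Peaks of at most 120 bp were fewer, at 24.2% in replicate 1 and 23.3% in replicate 2, against 26.2 to 35.1% and 24.6 to 35.1%. Peaks over 500 bp made up 6.03% (139 peaks) and 7.79% (193 peaks), with 2 other sequences higher in replicate 1 and 1 in replicate 2.

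Width also followed strength. Within deciles of −log10 p, widths on the sequence had the higher median in 8 of 10 deciles (replicate 1) and in 10 of 10 (replicate 2), by at most 17 bp and 20 bp. In the 2 remaining deciles of replicate 1 it was lower by at most 2 bp. Of the narrow peaks of at most 120 bp, a partner existed for 41.6% in replicate 1 (95% Wilson interval 37.6 to 45.7%), and for 31.3% in replicate 2 (27.6 to 35.1%). The other sequences together had 40.3% and 30.3%, inside those intervals. Of peaks over 500 bp, 139 of 139 and 191 of 193 had a partner, since 2 of replicate 2 did not. The other sequences together were alike, at 100% in replicate 1 and 99.1% in replicate 2.

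**Figure D4:**
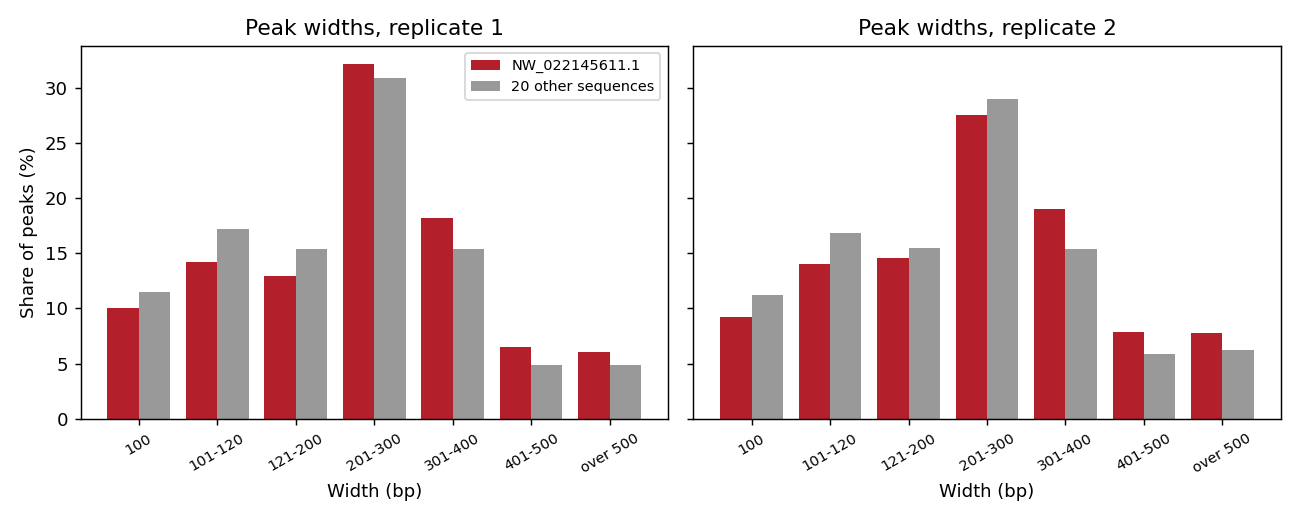
Share of peaks by width in bp on NW_022145611.1 (red) and on the 20 other long sequences together (grey), 1 panel per replicate. The classes up to 200 bp hold smaller shares on NW_022145611.1 and those above 300 bp larger ones, in both replicates.

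The widest peak of replicate 1 spanned 947 bp, from 16088885 to 16089831, with a summit of 25 reads and a fold of 6.18. That of replicate 2 spanned 946 bp, from 35900347 to 35901292, with 44 reads and a fold of 7.23. Both overlapped a peak of the other list. Neither was among the strongest, at rank 7933 of replicate 1 and rank 3650 of replicate 2, so width and height were not the same ordering at this end of the range.

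Neighbouring summits lay a median of 8316.5 bp apart in replicate 1, with quartiles of 2290 and 22760 bp, and 8136 bp apart in replicate 2, with quartiles of 2358.5 and 20605 bp. Both medians were the lowest of the 21 sequences, as a high density entails. Close pairs were as frequent as elsewhere, while long distances were fewer, which also follows in part from the density. Summits less than 1000 bp apart made up 16.7% of neighbouring pairs in both replicates (386 and 413 pairs, 95% Wilson intervals 15.3 to 18.3% and 15.3 to 18.2%), against 17.3% and 16.4% on the other sequences together. Pairs 1 to 10 kb apart made up 37.9% and 38.8%, against 31.4% and 33.2%. Pairs over 50 kb apart made up 9.89% and 8.77%, against 15.4% and 14.0%. The median was 0.430 and 0.448 times the mean distance, against 0.351 and 0.370 on the others together, and 3 of the 20 other sequences had a higher ratio in each list.

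Many of the closest pairs were adjoining calls. A gap of under 50 bp separated 186 pairs in replicate 1 and 197 in replicate 2. Those were 8.07% and 7.96% of neighbouring pairs, against 9.16% and 8.57% on the other sequences together. Merging peaks up to 100 bp apart left 2067 and 2230 peaks, with 6.92% and 7.27% of neighbouring summits under 1000 bp apart, against 6.89% and 6.71% on the other sequences. The median distance was then 10250 bp and 9778 bp.

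The longest stretch without a peak in either list ran from 40022765 to 40377856, over 355 kb, inside the sparse stretch. It was shorter than the longest such stretch on each of the other 20 sequences, where it ran from 377 to 1233 kb. Short gaps follow in part from the high density that chose the sequence. The next longest stretch without a peak ran from 20840893 to 21104457, over 264 kb, within bins of high counts. In all, 44 stretches between regions exceeded 100 kb. No peak lay before base 266202 in either list.

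That first region opened the longest run of shared regions with gaps under 1000 bp. It held 4 shared regions from 266202 to 268155, over 1954 bp, with 4 peaks in each list. In replicate 1 their summits held 35, 28, 33 and 17 reads, in order along the sequence. In replicate 2 they held 23, 34, 52 and 20 reads, so the first was higher in replicate 1 and the third in replicate 2. Runs of 3 regions followed from 16074778 to 16077014 and from 41941801 to 41944014. Of the 1565 shared regions, 20.5% had another shared region within that distance, against 16.7 to 23.6% on the other sequences, and 12 runs held 3 or more. Short-range clustering of this kind was thus within the range of the other sequences, where the longest runs held 2 to 4 regions.

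The 10 strongest shared regions, taken by the mean of their ranks by −log10 p in both whole lists, lay in 10 different bins, between bins 6 and 35. Summits held 63 to 92 reads in replicate 1 and 68 to 94 in replicate 2, folds were 12.8 to 23.5 and 11.7 to 23.2, and widths were 392 to 741 bp and 408 to 763 bp. Summits of both replicates differed by 0 to 51 bp. Ranks were 5 to 117 of 29456 in replicate 1 and 11 to 122 of 32554 in replicate 2. When regions were ranked by fold instead, 4 of the 10 remained among the first 10.

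The first region covered bases 24992371 to 24992808 (replicate 1) and 24992173 to 24992806 (replicate 2). Both summits fell on base 24992595. It held 86 and 87 reads at the summit, over local backgrounds of 2.92 and 3.27, which gave folds of 22.2 and 20.6 and ranks of 5 and 11. The upper edge matched within 2 bp, while the lower edge of replicate 2 reached 198 bp further out.

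The second covered 10324183 to 10324698 (replicate 1) and 10324160 to 10324698 (replicate 2), and its summits differed by 1 bp. It held 83 and 94 reads, with folds of 17.2 and 18.1. The third spanned 8327168 to 8327639 and 8327157 to 8327629, with 83 and 87 reads and folds of 16.6 in both. Both stood on a higher local background than the first region, at 3.88 to 4.31 reads per base.

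The fourth, from 22801720 to 22802111 in replicate 1 and 22801707 to 22802114 in replicate 2, held 79 and 78 reads. Its fold was 21.1 in replicate 1 and 17.1 in replicate 2, over backgrounds of 2.80 and 3.61. The fifth, from 14424791 to 14425225 and 14424803 to 14425217, had the fewest reads of the 10, at 63 and 68, and the highest fold of the 10, at 23.5 and 23.2. It lay on the lowest background, 1.72 and 1.97, in bin 15, which held only 24 and 23 peaks. A region among the strongest of the sequence thus lay in a bin with few peaks.

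The ninth region showed the reverse. It covered 34682951 to 34683507 (replicate 1) and 34682969 to 34683532 (replicate 2), in the dense bin 35. Its summit held 92 and 89 reads, the most of the 10 in replicate 1, but its fold was the lowest at 12.8 and 11.7, over the highest background of 6.25 and 6.72. The remaining 4 regions had their summits in replicate 1 at 29689665, 28345514, 5012795 and 27375406, with 64 to 82 reads in replicate 1 and 73 to 78 in replicate 2.

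**Figure D5:**
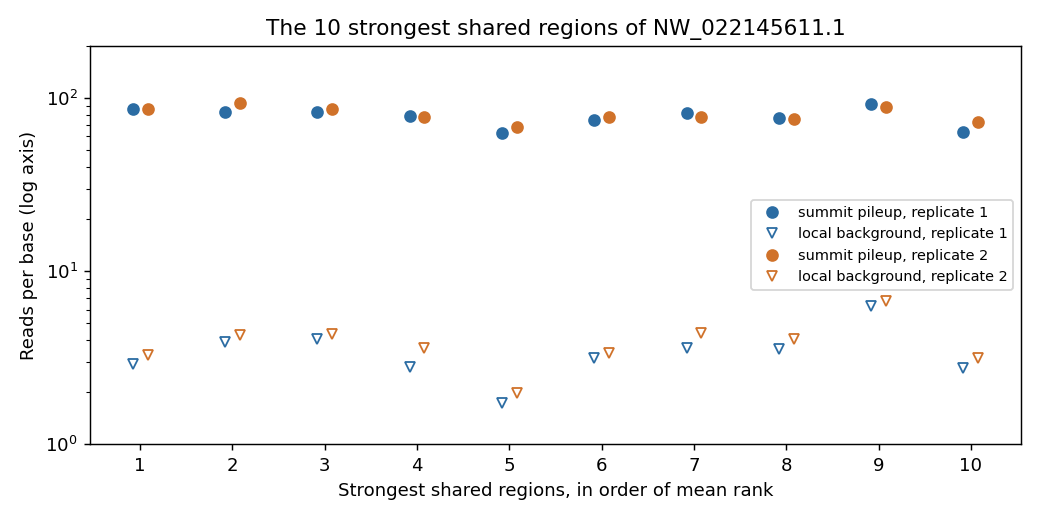
Reads at the summit (filled circles) and local background (open triangles) for the 10 strongest shared regions of NW_022145611.1, on a log axis in reads per base, in both replicates. Summits hold 63 to 94 reads and backgrounds run from 1.72 to 6.72, lowest at the fifth region and highest at the ninth.

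Against the whole series, the sequence held 2 of the 10 best shared regions, 12 of the best 100 and 115 of the best 1000, ranked in the same way. The last is 11.5% (95% Wilson interval 9.67 to 13.6%), against 8.35% of all 18749 shared regions. For the best 10 and the best 100 the Wilson interval held that 8.35%, so these counts alone do not show an excess. The intervals cover counting error only, and regions of the same libraries are not replicates. The share of the best 1000 is therefore a description too. NW_022145594.1 also held 2 of the best 10, and NW_022145612.1 held 11 of the best 100. At 2.55 per Mb the sequence had more of the best 1000 than any other long sequence, where the highest value was 1.94. Values per Mb follow in part from the density that chose it. Among the best 100 the sequence stood at 0.266 per Mb, just below the highest value of 0.268.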

How the data were processed

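The authors used Bowtie2, SAMtools and MACS2, per the submitters' processing notes, with no versions, settings, filters or build given in the sources used here. Each deposited list holds, per peak, the authors' fold over background (a ratio), −log10 p, −log10 q, display score and summit, called per sample. A fold depends on local background, and peak number and width on the threshold.

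Peaks were ranked within each whole list by −log10 p and split into 10 deciles. Summit reads and background were solved from fold = (reads + 1)/(background + 1) and a Poisson p. Both formulas are assumptions, since the settings are not given. The tolerance was 5e-05 in −log10 p plus an allowance for rounding that grew with −log10 p. Bins count summits; the last 0.166 Mb, with 0 and 4 peaks, was left out of them. Lengths end at the last peak, so densities are upper bounds. Wilson intervals (95%) cover counting error only. Code was tested on simulated data (Python 3.11.15, numpy 2.4.6, pandas 2.3.3, scipy 1.17.1, matplotlib 3.10.9).

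The sequence and measures were chosen with earlier results of these data known. The rule named the 10 shared regions of best mean rank, the 3 bins with most and with fewest peaks, the densest run of bins, the longest stretch without peaks and the longest run of shared regions. Other bins and regions were named after their values were seen. Alternatives were stricter thresholds, other overlap rules, merging, other bins and lengths, equal lists and each replicate alone. Genes, GC content and motifs were not analysed here.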

Additional observations from a re-analysis of the deposited data

How the results depend on the processing

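Changes are given where they exceeded the SD of the 2 replicates (0.1 for a correlation); for the share in both lists, both values describe the same overlap. The rule chose the sequence by its density, and stricter, merged and shared-only lists are made from the same peaks, so its place among the sequences in them is no independent support. The better-ranked 50% of each list gave 29.2 peaks per Mb, 1.72 times the median of the other sequences, a median width of 317 bp, a median summit distance of 15338.5 bp, 9.17% of summits under 1000 bp apart, a coefficient of variation of 38.6%, a fold of 7.50 and a share in both lists of 79.1%. A −log10 p of at least 10 gave 26.6 per Mb, 1.76 times, 328 bp, 16933 bp, 8.32%, 39.2%, 7.82 and 79.7%. These settings remove weak peaks by construction. Merging peaks up to 100 bp apart gave 47.6 per Mb, 263.5 bp, 10014 bp, 7.09% and 35.3%. Shared peaks alone lay at 37.2 per Mb, 1.72 times the median of the others. Against the second densest sequence the ratio was 1.07. The share in both lists was 54.4% under a reciprocal overlap of 50% and 55.6% for summits within 100 bp. The coefficient of variation was 44.4% in 500 kb bins, 30.8% in 2 Mb bins and 38.2% in shifted bins. Without the 4 sparse bins, a setting added after the data had been seen, it was 28.1%, with 56.3 peaks per Mb. Ranking by fold kept 4 of the 10 strongest regions. The cause of these changes, beyond what the settings do by construction, was not tested.

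The correlation between bin counts did not move under its alternatives. Each replicate alone cannot move beyond the SD with 2 replicates, so it says nothing about stability. The weakest decile rests on a median of 8 reads at the summit, which limits what its missing partners show. Settings on reference length, genes, promoters, GC and motifs were not run. No paired analysis was possible because the study has a single group.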
